A study of Mus musculus with 12 samples.

Results

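The genes described here are 10 members of the NF-kB pathway: the 5 subunits Nfkb1, Nfkb2, Rel, Rela and Relb, and the regulators Nfkbia, Nfkbib, Nfkbie, Tnfaip3 and Bcl3. They were chosen by symbol, and all 10 were found among the 26609 genes counted and among the 13692 that passed the filter on low counts. NF-kB factors are pairs of subunits that share a REL homology domain. In resting cells IkB proteins hold most of them in the cytoplasm, and signals from the T cell receptor, CD28 and the TNF receptor family activate the IKK kinase, which marks IkB for destruction. Several inhibitors are themselves targets of NF-kB, so that their transcripts are induced by the pathway they shut off. In regulatory T cells (Tregs) Rel and Rela are known to act in the development and upkeep of the lineage.

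Transcripts were counted in Tregs sorted as CD4+CD25hiCD127lo cells from mesenteric lymph nodes, although the labels call them intestinal. All mice were untreated and of the SAMP/YitFC strain, which develops ileitis spontaneously, so every group shares that background. The 4 groups were SAMP/YitFC-WT males, SAMP/YitFC-WT females, SAMP/YitFC-ERb-KO males and SAMP/YitFC-ERb-KO females, with 3 libraries each. ERb is the estrogen receptor encoded by Esr2. Its loss is described as global, so it is not limited to Tregs. Ages, the deleted part of Esr2 and whether the 12 libraries are from 12 mice are not given, so p-values measure the spread between these libraries, which may be technical.

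Library totals ran from 10.2 to 16.7 M counts. The Treg genes Foxp3, Il2ra, Ctla4, Ikzf2, Cd4 and Cd3e had counts in every library and summed to between 3016 and 4394 CPM (counts scaled to a common library size, with TMM scaling). In 4 of the 12 libraries, called sex-discordant here, the sex-linked transcripts went against the title. WT female 2 and KO female 1 held 5501 and 3987 counts of 4 Y-linked genes, and KO male 1 and KO male 2 held 0 Y-linked and 3864 and 1016 Xist counts. Esr2 did not follow the title either. It had 0 to 14 counts in 4 of 6 WT-titled libraries and 133 and 159 in the others, and 94 to 161 counts in 4 of 6 KO-titled libraries and 2 and 8 in the others. Its mean was 6.77 ± 5.10 CPM in KO-titled and 3.68 ± 5.45 CPM in WT-titled libraries. The transcript thus does not bear out the titled genotype behind any KO minus WT direction. WT male 1, WT male 2, WT male 3 and WT female 1 were low in Esr2 and are not sex-discordant. KO male 1 and KO male 2, the KO-titled libraries low in Esr2, are sex-discordant. Leaving out the sex-discordant libraries therefore keeps this conflict and sharpens it. The KO-titled libraries left, KO male 3, KO female 2 and KO female 3, held 95, 94 and 128 Esr2 counts. Group names below follow the titles, so any direction given rests on labels that the transcripts partly contradict.

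The promoter of Nfkbia, the gene of the inhibitor IkB-alpha, is shown because its transcript had the smallest p among the 10 genes between titled sexes in WT. Promoters came from RefSeq (GRCm38.p6), where 8 of the 10 genes matched, with 11 start sites. The 250 bases before the Nfkbia start (chr12:55492648-55492897, minus strand) read 5′ to 3′ as follows, with the match to the kB consensus in capitals.
Nfkbia: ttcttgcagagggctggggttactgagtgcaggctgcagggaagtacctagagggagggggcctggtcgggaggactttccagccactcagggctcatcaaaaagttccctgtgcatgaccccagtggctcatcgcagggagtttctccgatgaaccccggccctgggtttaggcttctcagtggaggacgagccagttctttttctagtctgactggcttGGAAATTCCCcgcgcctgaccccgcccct
The match lies 29 to 20 bases before the start.

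A match to the kB consensus, on either strand, stood in the 250 bases before the start in 7 of the 11 windows and for 5 of the 8 genes: Nfkbia, Rel, Nfkb2, Nfkbie and Tnfaip3. Over all 32851 RefSeq windows of that length the share with a match was 7.25%. A looser pattern, GGG and CC with any 5 bases between, which covers every such match, occurred in 45.8% of all windows and for 7 of the 8 genes. The 30 bases around each further match are printed in the direction of the gene, with the match or overlapping matches in capitals.
Rel, chr11:23771041-23771070, minus strand: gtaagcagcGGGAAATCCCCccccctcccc
Nfkb2, chr19:46304689-46304718, plus strand: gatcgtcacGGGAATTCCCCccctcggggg
Nfkb2, chr19:46304716-46304745, plus strand: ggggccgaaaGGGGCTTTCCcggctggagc
Nfkb2, chr19:46305449-46305478, plus strand: tccgacggcaGGAATGTCCCcacaaaagcc
Nfkb2, chr19:46305695-46305724, plus strand: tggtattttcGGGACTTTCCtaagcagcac
Nfkbie, chr17:45555584-45555613, plus strand: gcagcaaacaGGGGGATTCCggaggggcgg
Tnfaip3, chr10:19015516-19015545, minus strand: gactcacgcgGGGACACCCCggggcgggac
Tnfaip3, chr10:19015403-19015432, minus strand: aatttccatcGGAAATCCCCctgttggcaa
The windows of Rela, Bcl3 and Nfkbib held no match to these letters. A match is a description of the sequence, and binding was not measured.

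The genes differed widely in level. Per length, as RPKM (CPM per kilobase of exon in GENCODE vM21, GRCm38), Nfkbia was far above the rest at 466 ± 141 (mean ± SD, n = 12) and exceeded Rela in 12 of 12 libraries. Rela, which encodes p65, the main transactivating subunit, followed at 89.1 ± 7.46 RPKM. Next came Bcl3, a nuclear IkB protein that binds p50 and p52 pairs, at 64.1 ± 10.2 RPKM. Tnfaip3, which encodes the ubiquitin-editing enzyme A20, stood at 58.0 ± 34.5 RPKM, and Nfkb2 at 49.6 ± 6.86 RPKM. The order of Tnfaip3 and Nfkb2 held in only 7 of 12 libraries, so these neighbours did not differ beyond their spread.

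Nfkbib, Nfkbie and Relb shared a middle level. Their RPKM were 34.5 ± 4.78 for Nfkbib and 33.4 ± 4.87 for Nfkbie, the genes of IkB-beta and IkB-epsilon, and 33.4 ± 4.99 for Relb. Nfkbib exceeded Nfkbie in 6 of 12 libraries and Nfkbie exceeded Relb in 6 of 12, so the 3 genes could not be ordered. Nfkb1, the gene of p105 and p50, was lower at 15.4 ± 1.54 RPKM, and Rel lowest at 5.12 ± 1.17 RPKM. Those 2 steps down held in 12 of 12 libraries. The annotation used for the deposited counts is not given, so these levels depend on the exon lengths assumed.

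**Figure D1:**
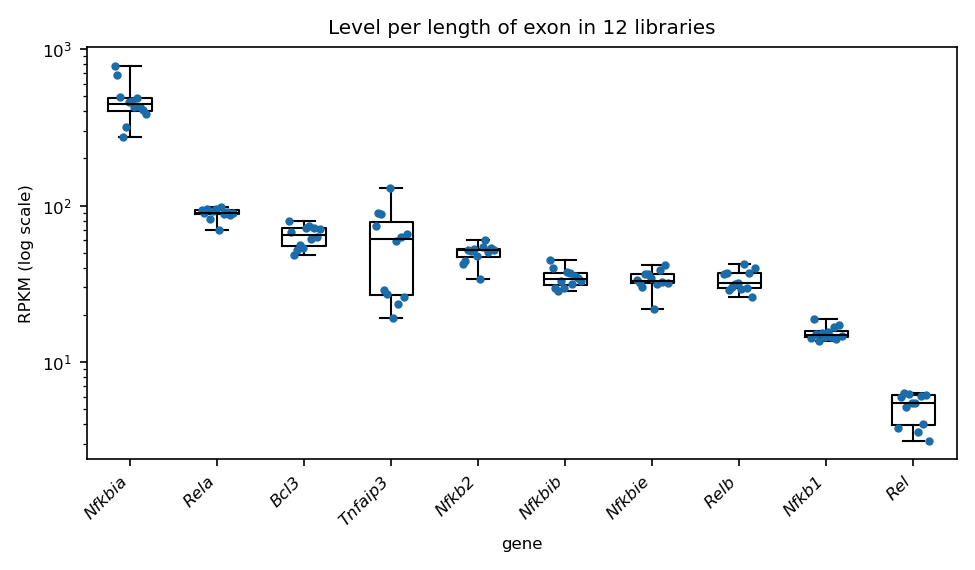
RPKM of each gene on a log axis, with 1 point per library, a box over the quartiles, a line at the median and whiskers to the lowest and highest of 12 libraries. Nfkbia stands above all others, Nfkbib, Nfkbie and Relb overlap, and Rel is lowest.

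Among the subunits, Rela made up 46.3 ± 1.57% of their summed RPKM, Nfkb2 25.7 ± 2.49%, Relb 17.3 ± 2.24%, Nfkb1 8.03 ± 1.05% and Rel 2.68 ± 0.674% (n = 12). The sum itself ran from 154 RPKM in KO male 1 to 213 RPKM in KO male 2. These shares depend on the exon lengths assumed, which were 12061 bases for Nfkb1 and 3885 for Relb. By CPM, without division by length, Nfkb1 was above Relb, at means of 186 and 130. The SDs do not cover the choice of length. These are shares of transcript and say nothing of protein.

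Spread over the libraries set the genes apart from each other. The coefficient of variation of CPM was 59.4% for Tnfaip3 and 30.3% for Nfkbia, against a median of 19.3% over the 9029 genes with at least 10 CPM on average. Rela and Nfkb1 were the steadiest, at 8.37% and 9.99%. Of the 921 genes within 2-fold of the mean level of Tnfaip3, 99.8% varied less. For Nfkbia that share was 92.9% of 366 genes, and for Rela it was 2.78% of 1620 genes. Thus the 2 feedback inhibitors with the highest CPM were also the 2 most variable members.

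**Figure D2:**
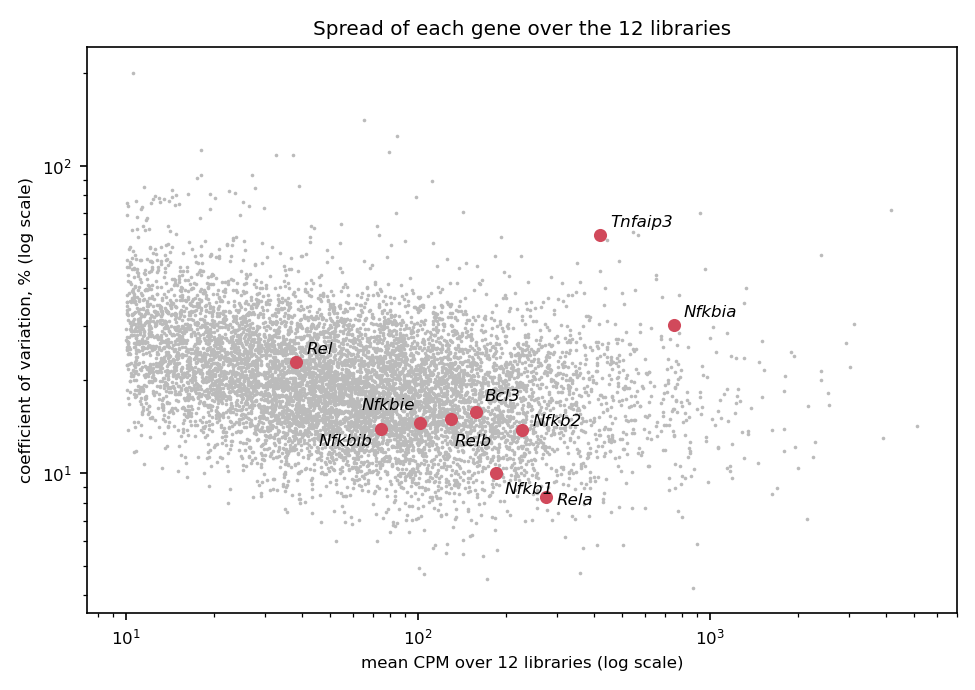
Coefficient of variation of CPM over the 12 libraries against mean CPM, both on log axes, for genes with a mean of at least 10 CPM, with the 10 NF-kB genes as large labelled points. Tnfaip3 and Nfkbia lie high for their level and Rela and Nfkb1 low.

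Averaged over the sexes, none of the 10 genes passed the test of KO-titled against WT-titled Tregs, where 1.5% of all genes tested passed. The median log2 fold change of the 10 genes was -0.01, with 5 positive and 5 negative, and that of all genes tested was 0.02. None of the 10 reached an unadjusted p under 0.05, against 15.9% of all genes. Outside Tnfaip3, the unadjusted 95% intervals lay between -0.62, the lower bound for Rel, and 0.48, the upper bound for Bcl3. Changes of that size or smaller are not excluded by these libraries.

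The subunits stayed close between the genotypes. Rela averaged 268 ± 29.0 CPM in the 6 KO-titled and 279 ± 15.6 CPM in the 6 WT-titled libraries, a log2 fold change of -0.06 (SE 0.10, adjusted p = 0.838 by edgeR's quasi-likelihood test). Nfkb1 averaged 187 ± 16.1 and 184 ± 22.2 CPM, with a log2 fold change of 0.02 (95% interval -0.21 to 0.25). Nfkb2, the gene of p100 and p52, averaged 233 ± 41.3 and 222 ± 20.0 CPM (0.07, interval -0.21 to 0.35). Relb, the partner of p52, averaged 132 ± 25.5 and 127 ± 12.7 CPM (0.06, interval -0.23 to 0.35). Rel averaged 35.4 ± 9.94 and 41.1 ± 7.12 CPM (-0.22, interval -0.62 to 0.19). For all 5 the difference was smaller than the spread between libraries of a genotype.

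**Figure D3:**
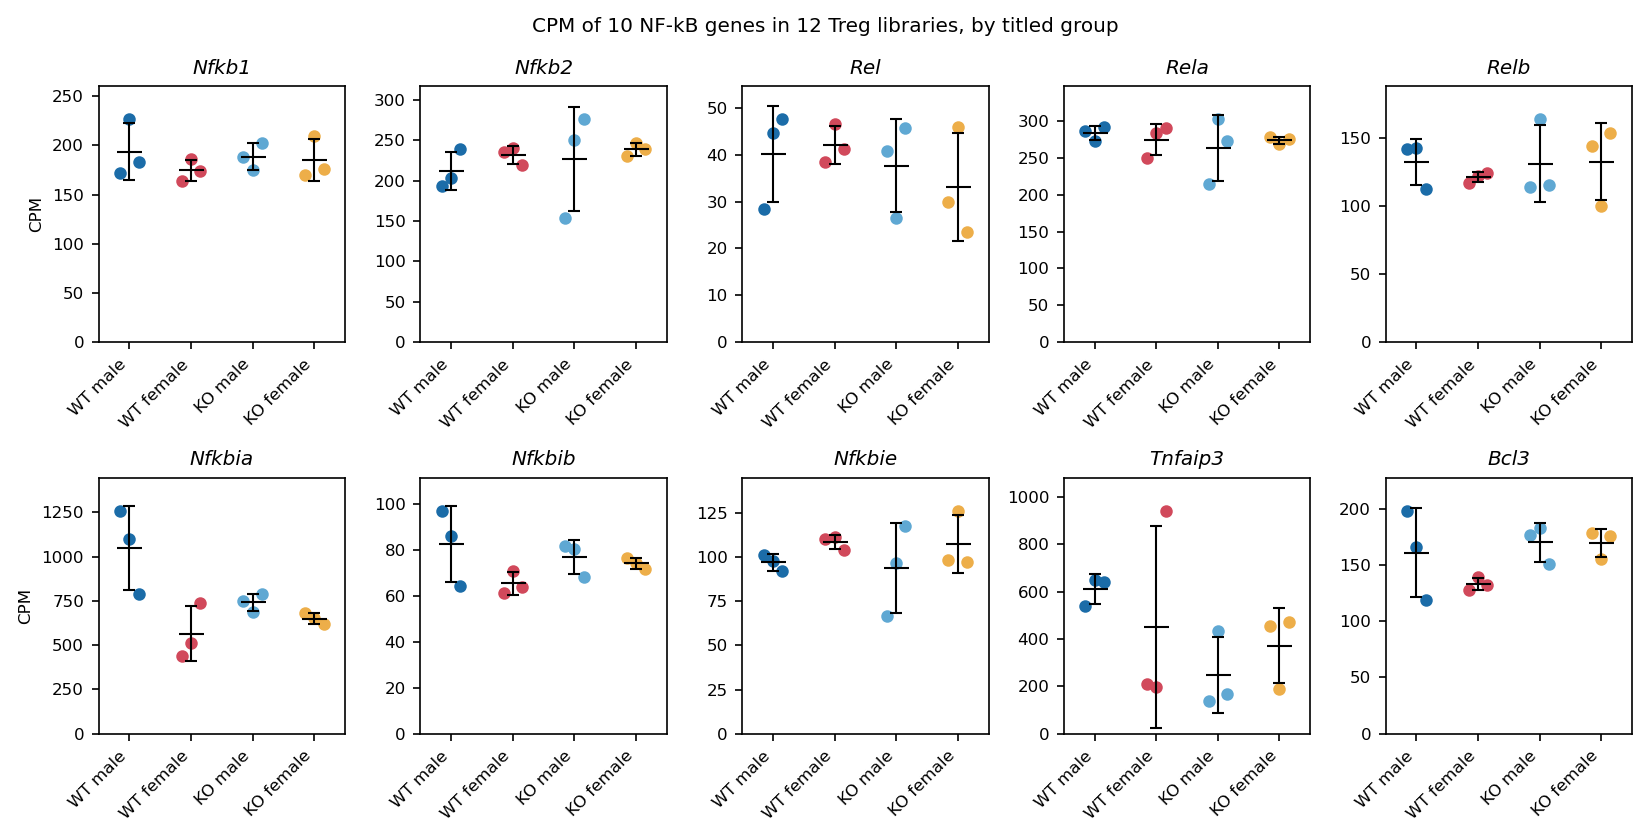
CPM of each of the 10 genes in the 12 libraries, by titled group, with points for libraries and a bar for the mean ± SD of 3 libraries. WT male libraries are highest for Nfkbia, and the WT female libraries of Tnfaip3 span the widest range, from 197 to 941 CPM.

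Single libraries showed more structure in Rel and Relb than the group means. Rel CPM were 28.3, 44.5 and 47.6 in WT males, 38.5, 46.6 and 41.2 in WT females, 40.9, 26.6 and 45.6 in KO males and 29.9, 45.9 and 23.5 in KO females. WT male 1, KO male 2, KO female 1 and KO female 3 were thus below 30 CPM, and the other 8 libraries at 38.5 CPM or more, in a pattern that crosses genotype and sex. Relb CPM were 142, 143 and 113 in WT males, 117, 122 and 125 in WT females, 114, 164 and 116 in KO males and 144, 100.4 and 154 in KO females. The 4 libraries low in Rel held 4 of the 5 highest Relb values, the other being WT male 2. Pearson's r of their log2 CPM was -0.81 over the 12 libraries, given as a description of genes that share libraries and depth.

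Tnfaip3 split the libraries along other lines. Its CPM were 538, 651 and 642 in WT males, 209, 197 and 941 in WT females, 138, 432 and 169 in KO males and 453, 188 and 473 in KO females. No library lay between 209 and 432 CPM. All 3 WT males were in the upper range, and each other group had libraries in both ranges. Among KO-titled libraries, KO male 2, KO female 1 and KO female 3 were in the upper range of Tnfaip3 and in the lower range of Rel. Of these, KO male 2 and KO female 1 are libraries whose sex-linked transcripts went against the title.

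**Figure D4:**
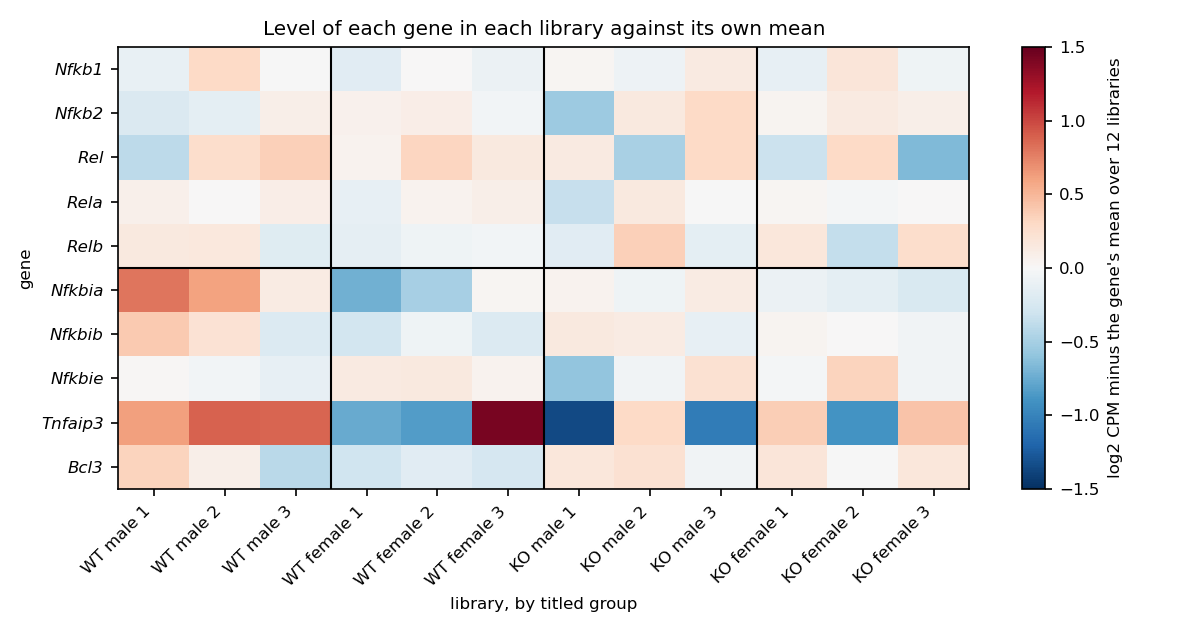
Log2 CPM of each gene minus its own mean over the 12 libraries, with red for higher and blue for lower, libraries in columns by titled group and genes in rows, subunits above the line and regulators below. Tnfaip3 carries the strongest colours, and Rel and Relb show opposite colours in WT male 1, KO male 2, KO female 1 and KO female 3.

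Over both sexes, Tnfaip3 was at 309 ± 159 CPM in KO-titled and 529.5 ± 286 CPM in WT-titled libraries (n = 6 each). Its log2 fold change was -0.79 (SE 0.40, 95% interval -1.64 to 0.06, adjusted p = 0.356), and the genotypes overlapped. Much of the estimate rested on WT female 3, and without that library it was -0.22 (adjusted p = 0.819). With no filter on low counts the estimate was nearly the same, -0.79, but its SE was 0.14 and its adjusted p 4.53e-06. Without the 4 sex-discordant libraries, which leaves KO male 3 as the only KO male, it was -1.34.

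In males, Tnfaip3 and Nfkbia were lower in every KO-titled than in every WT-titled library, and neither passed the test. Mean Tnfaip3 was 246 ± 161 CPM in KO males against 610.0 ± 62.6 CPM in WT males (n = 3 each), a log2 fold change of -1.31 (SE 0.57, adjusted p = 0.320). Nfkbia averaged 741 ± 49.0 and 1048 ± 238 CPM, a log2 fold change of -0.50 (SE 0.20, adjusted p = 0.278). Of all genes tested, 14.4% did not overlap between these 6 libraries, and 2 of the 10 members did not. Also 2 of the 10 had an unadjusted p under 0.05, against 14.2% of all genes, while 0.073% of all genes passed after adjustment. With no filter on low counts the adjusted p of Tnfaip3 in males was 3.54e-08, and without KO male 2 its log2 fold change was -1.99 (adjusted p = 0.104). KO male 1 and KO male 2 held Xist and no Y-linked counts. Without the 4 sex-discordant libraries KO male 3 was the only KO male left. The log2 fold changes in males were then -0.44 for Nfkbia and -1.88 for Tnfaip3.

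In females, Nfkbib and Bcl3 were higher in all 3 KO-titled than in all 3 WT-titled libraries, and neither passed. Bcl3 CPM were 178, 156 and 176 in KO females and 128, 139 and 132 in WT females, a log2 fold change of 0.35 (SE 0.17, adjusted p = 0.678). Nfkbib averaged 74.3 ± 2.40 and 65.6 ± 4.99 CPM, a log2 fold change of 0.18 (adjusted p = 0.837). No overlap was seen in 21% of all genes in that comparison, so 2 of 10 members is a share near the background. None of the 10 had an unadjusted p under 0.05, against 7.71% of all genes, and 0% of all genes passed in females. WT female 2 and KO female 1 carry Y-linked counts. The titled female genotypes also differed in a balance of transcript lengths, described below, whose part in these values was not tested. The log2 fold change of Tnfaip3 in females was -0.27 (SE 0.56), and it turned to 0.88 without WT female 3 and to 0.04 without KO female 2 (adjusted p = 0.992 for the latter).

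Among WT-titled Tregs, Nfkbia was lower in females than in males in all libraries. Nfkbia CPM were 1258, 1098 and 789 in WT males and 439.8, 513 and 739.6 in WT females. The 3 males lay above the 3 females, with WT male 3 and WT female 3 close to each other. The log2 fold change, female minus male, was -0.89 (SE 0.20, 95% interval -1.32 to -0.46), a level in females of 0.54 times that in males. Its unadjusted p was 0.00049, and its adjusted p was 0.426, so the difference did not pass over all genes tested. With edgeR 0% of all genes passed in this comparison and 6.52% had an unadjusted p under 0.05. Among the members, 1 of 10 had.

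The call on Nfkbia depended on the fit. With DESeq2 its adjusted p was 0.0185, with no filter on low counts 0.00241, without WT male 3 0.0443 and without WT female 3 0.0324, at log2 fold changes between -1.15 and -0.89. In the other 14 alternatives the adjusted p was above 0.05, with estimates as small as -0.74. WT female 2 carries Y-linked counts, and without the 4 sex-discordant libraries the estimate was -0.82 (adjusted p = 0.762). Of the WT groups, that fit lost only WT female 2. The comparison shares its WT males with that of KO and WT males.

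Markers of other cells also differed among these 6 libraries. Macrophage and monocyte markers summed to 286 and 265 CPM in WT female 1 and WT female 2, the libraries lowest in Nfkbia, and to 35.5 CPM in WT female 3, against 19.0 to 44.5 CPM in WT males. Lyz2 made up most of the macrophage and monocyte sum, at a mean of 166 CPM in WT females and 24.5 CPM in WT males. Dendritic cell markers summed to 728, 537 and 238 CPM in WT females 1 to 3 and to 227 to 253 CPM in WT males. Most of the dendritic cell sum was Cd74, at a mean of 422 CPM in WT females and 207 CPM in WT males. B-cell markers summed to 175, 109 and 57.7 CPM in WT females and to 38.0 to 61.8 CPM in WT males. Their part in the Nfkbia values was not tested.

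Nfkbie went the other way in WT. It averaged 109 ± 3.95 CPM in WT females and 97.2 ± 4.77 CPM in WT males, without overlap, and its log2 fold change was 0.16 (SE 0.19, adjusted p = 0.869). In that comparison 15.7% of all genes did not overlap, against 2 of the 10 members. Nfkbib was at 65.6 ± 4.99 in females and 82.7 ± 16.7 CPM in males (-0.33, SE 0.17, adjusted p = 0.718). Tnfaip3, with its wide range in WT females, had a log2 fold change of -0.44 (SE 0.56).

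Among KO-titled Tregs, Nfkbia CPM were 747, 689 and 787 in KO males and 681, 651 and 617 in KO females, which did not overlap but differed by a log2 fold change of only -0.19 (SE 0.20, adjusted p = 0.878). KO male 1, KO male 2 and KO female 1 are sex-discordant. By transcript, the libraries with Y-linked counts were at 787 and 681 CPM. Those with Xist were at 747, 689, 651 and 617 CPM, so the sexes by transcript overlapped. The comparison of KO sexes and the interaction below follow the titles. By title, Nfkbia was the 1 member of 10 whose groups did not overlap, against 7% of all genes. None of the members had an unadjusted p under 0.05, where 5.27% of all genes had one, and 0% of all genes passed. The difference between the KO effects in females and in males was 0.70 for Nfkbia (SE 0.28, 95% interval 0.10 to 1.31, unadjusted p = 0.0252, adjusted p = 0.900). For Tnfaip3 it was 1.04 (SE 0.79). In that test 1 of 10 members had an unadjusted p under 0.05, against 4.81% of all genes, and 0% of all genes passed.

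**Figure D5:**
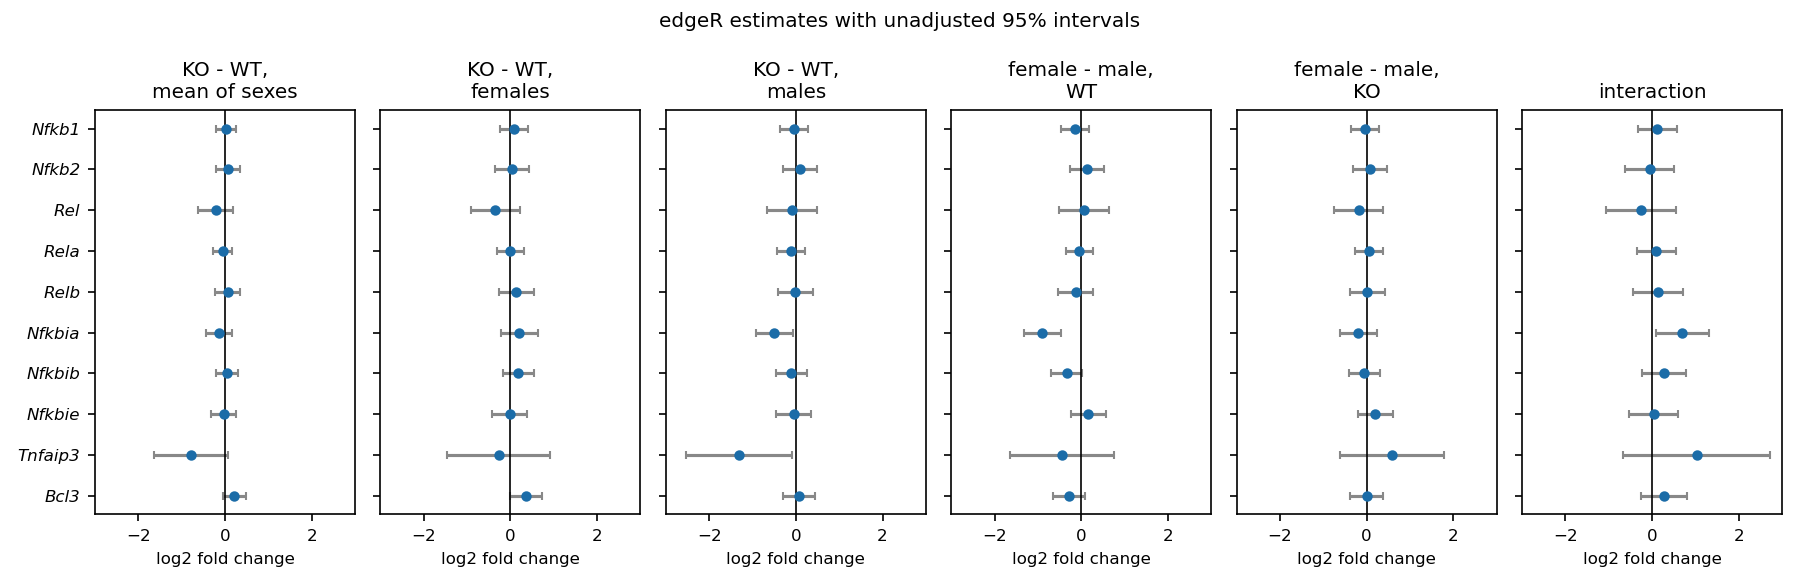
Log2 fold changes of the 10 genes in 6 comparisons of titled groups, with unadjusted 95% intervals from edgeR. The interval of Nfkbia lies below 0 in KO minus WT males and in female minus male WT, and above 0 in the interaction. That of Tnfaip3 lies below 0 in KO minus WT males and is the widest in each panel.

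The genes most like each member across the libraries were found by correlation. Over the 9028 other genes with at least 10 CPM, the highest Pearson r with Nfkbia in log2 CPM across 12 libraries was 0.95 for Gadd45b, a stress-response gene and NF-kB target, followed by 0.92 for Cd69, an early activation marker, and 0.89 for Gem, a small GTPase gene induced on activation. Gadd45b CPM were 98.1, 83.2 and 55.5 in WT males and 30.6, 31.6 and 63.2 in WT females. The order of these libraries was that of Nfkbia except that WT female 3 lay above WT male 3. In KO-titled libraries Gadd45b ran from 44.5 to 59.6 CPM. Its log2 fold change of female minus male in WT was -0.92 (SE 0.27, adjusted p = 0.718). For Nfkb1 the nearest genes were Gabrr2 (0.89), Mrps10 (0.88) and 4933434E20Rik (0.88), and for Bcl3 they were Sec61g (0.92), Klk8 (0.92) and Ost4 (0.90). These values describe likeness over libraries that share depth and handling, and carry no test.

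A balance of transcript lengths also differed between libraries. It was computed after the values were seen, as the median log2 deviation of 2799 genes with at least 6000 bases of exon minus that of 860 genes with at most 2000. It was lowest in WT male 1, KO male 1 and WT male 2, at -0.42, -0.36 and -0.27, and highest in WT female 3 at 0.37. Those 3 lowest libraries had the 3 highest levels of Nfkbib, at 97.2, 81.9 and 86.4 CPM. WT male 1 was also highest and WT male 2 second for Nfkbia, whose exons span 1610 bases, but KO male 1 ranked 5 of 12, and WT male 3, with a balance of 0.27, ranked 3. WT female 3, WT female 1, WT male 3, WT female 2 and KO male 3 had the highest balance. The same libraries had the lowest levels of Bcl3 and of Nfkbib. In females the balance ran from 0.20 to 0.37 in WT and from -0.07 to 0.01 in KO, without overlap. The part of this balance in the Nfkbia, Nfkbib and Bcl3 values was not tested.

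Markers of other cells moved with titled genotype, and NF-kB genes are also active in those cells. The 6 B-cell markers had a summed level of 145 to 333 CPM in KO-titled and 38.0 to 175 CPM in WT-titled libraries, and 4 of the 6 passed upward in the test over both sexes, where 0.606% of all genes did. The 7 dendritic cell markers summed to 617 to 1475 and 227 to 728 CPM, with 2 of 7 passing upward and 1 negative. Cd74, at a mean of 772 CPM in KO and 315 CPM in WT, made up most of that sum. Itgax averaged only 2.5 and 1.2 CPM, and Flt3 2.2 and 1.3 CPM. The 4 macrophage and monocyte markers in the file summed to 142 to 347 and 19.0 to 286 CPM, with 1 passing. Lyz2, at a mean of 190 CPM in KO and 95.3 CPM in WT, made up most of that sum. Neutrophil markers summed to 1.78 to 28.8 CPM in KO and to between 0 and 0.40 CPM in WT. The 4 tested passed the filter on low counts only through KO-titled libraries, so their calls upward carry no weight. Ly6g was not tested, with 0 counts in every WT and KO male library and at most 0.27 CPM in KO females. Plasma cell markers summed to 383 to 451 CPM in KO and 357 to 431 CPM in WT, with 1 of 3 passing. Their log2 fold changes ran from 0.04 to 4.35 with a median of 0.54, so the sums do not follow each marker. The plasma cell marker 2010001M09Rik ran from 3.10 to 20.4 CPM in KO and from 0 to 2.54 CPM in WT. In WT males it reached at most 0.45 CPM, near the floor, so a call on it carries little weight. CD8 and NK cell markers (26.8 to 73.5 and 27.2 to 46.0 CPM) and stromal markers (2.02 to 28.6 and 0.827 to 3.08 CPM) had none passing, and neither had the 6 Treg genes. Their part in the levels of the 10 genes was not tested. In bulk RNA a change in the number of cells of a type and a change per cell cannot be told apart.

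Receptors and ligands upstream of NF-kB showed no passing member in any of the 6 comparisons, where at most 1.5% of all genes passed, so a count of 0 is near the background. Of 20 tested receptors that signal to NF-kB, 11 were positive in KO minus WT averaged over the sexes, with a median log2 fold change of 0.06. The 2 with the smallest p were Tnfrsf13c, the BAFF receptor of B cells, at 1.23 (SE 0.30, adjusted p = 0.0521), and the interleukin-18 receptor gene Il18r1 at -0.40 (adjusted p = 0.0872). Tnfrsf13c averaged 13.9 ± 4.37 CPM in KO-titled and 6.09 ± 3.02 CPM in WT-titled libraries. The 13 tested ligands had a median of 0.20, with Tnfsf11, which encodes RANKL, at -0.50 (adjusted p = 0.148) and Tnfsf8, the CD30 ligand, at -0.30 (adjusted p = 0.255). For comparison, the median over all genes tested was 0.02.

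Genes of the IKK kinase machinery were likewise without a passing member. The 11 genes of the IKK complexes had a median of -0.10 with 3 positive. Map3k14, which encodes the kinase NIK of the alternative pathway, averaged 79.4 ± 26.6 CPM in KO-titled and 52.9 ± 9.95 CPM in WT-titled libraries, a log2 fold change of 0.59 (SE 0.17, adjusted p = 0.0967). Tab3, an adaptor of the kinase TAK1, was at -0.57 (adjusted p = 0.189).

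The 2 pathway genes that passed were in the same list. The lists were chosen with earlier results of these data known, so the share passing is a description. Of 12 tested genes in the list of other IkB proteins and deubiquitinases, Otud7b and Tax1bp1 fell in KO-titled Tregs averaged over the sexes, where 0.898% of all genes passed downward, and none rose. Otud7b encodes Cezanne, a deubiquitinase that restrains NF-kB, and Tax1bp1 an adaptor of A20. Otud7b CPM ran from 27.3 to 38.7 in KO-titled and from 39.7 to 57.6 in WT-titled libraries. Its log2 fold change was -0.56 (SE 0.12, adjusted p = 0.0388). Tax1bp1 ran from 272 to 420.4 and from 422 to 522 CPM, and dropped by 0.45 on the log2 scale (SE 0.11, adjusted p = 0.0486). Neither overlapped between the genotypes, where 2.4% of all genes did not.

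Both calls sat near the threshold. Leaving out single libraries gave adjusted p from 0.0272 to 0.103 for Otud7b and from 0.0176 to 0.150 for Tax1bp1. Both calls were lost without the 4 sex-discordant libraries, which leaves KO male 3 as the only KO male. Otud7b lost its call without any 1 of the 6 WT-titled libraries, KO male 3 or any KO female library. Tax1bp1 lost its call without any 1 of the 6 WT-titled libraries, KO male 1, KO male 3, KO female 1 or KO female 3. With the title number as a block the adjusted p were 0.123 for Otud7b and 0.124 for Tax1bp1, and for Tax1bp1 it was 0.0546 with RLE scaling. With the WT male libraries titled 2 summed they were 0.0803 and 0.0868. In all, the call held in 5 of 18 alternatives for Otud7b and in 4 of 18 for Tax1bp1. Log2 fold changes stayed between -0.64 and -0.41 for both genes over all alternatives.

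Other members of that list did not pass. Cyld, the gene of a deubiquitinase that removes chains from adaptors of the pathway, was also chosen after its values were seen. It averaged 264 ± 36.9 CPM in KO-titled and 383 ± 79.4 CPM in WT-titled libraries (-0.54, SE 0.13, adjusted p = 0.0550). Nfkbid, which encodes the nuclear protein IkB-NS and was chosen likewise, ran from 187 to 229 CPM in KO-titled and from 143 to 186 CPM in WT-titled libraries. Its log2 fold change was 0.31 (SE 0.10, adjusted p = 0.145). The list had a median of -0.12, with 5 positive.

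Textbook targets of NF-kB were also without a call in any comparison, where at most 1.5% of all genes passed, so 0 is near the background. Of 28 tested, 12 were positive in KO minus WT averaged over the sexes, with a median of -0.05. Cd44, an adhesion receptor gene, averaged 127 ± 15.9 CPM in KO-titled and 176 ± 28.7 CPM in WT-titled libraries (-0.47, SE 0.12, adjusted p = 0.0576). Its highest KO-titled value was 147.4 CPM and its lowest WT-titled value 147.8 CPM, so the genotypes only just did not overlap. Of all genes tested, 2.4% did not overlap. Ccl5, a chemokine gene, was at 1.00 (SE 0.35, adjusted p = 0.171). For female minus male in WT the targets had a median of -0.03, with 13 of 28 positive.

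Counts of some members may be affected by overlapping genes, since the library kits do not mark strand. In GENCODE vM21, 14.5% of the exon bases of Nfkbib lie opposite Ccer2 and 1.94% opposite Sirt2. Of those of Nfkb2, 11.6% lie opposite a non-coding RNA and 6.52% opposite Psd. Of those of Bcl3, 6.51% lie opposite Gm16175. Nfkbia (chromosome 12, 55489410 to 55492647) and Tnfaip3 (chromosome 10, 19000910 to 19015657) shared no exon bases with another gene.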

How the data were processed

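The authors deposited raw counts per gene symbol for 26609 genes in 12 libraries, and log2 values for 24584 of them. The submitters name GRCm38 as build and edgeR, featureCounts (1.5.0-p2), HISAT2 (2.0.5) and Subread as tools, per the submitters' processing notes. No source used here gives the annotation release or the strand setting. The deposited log2 values equalled log2 CPM recomputed from the counts (TMM, prior count 0.25) to within 4.97e-14, and the counts were tested.

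Groups came from the sample titles. Genes were filtered by filterByExpr, which left 13692, and at least 99.8% of each library's counts. A quasi-likelihood model in edgeR with a mean for each of the 4 groups (R 4.3.3, edgeR 4.0.16, robust, no block) was fitted to all 12 libraries, two-sided, with Benjamini-Hochberg adjustment over all genes tested and a threshold of 0.05. Standard errors were derived from the F statistic. The steps were tested on simulated counts. DESeq2 1.42.0 served as an alternative. A count of 0 allows up to 0.291 CPM in the shallowest library (3 counts), which covers counting error only. Replicates of 1 group differed by at least 9.53 times the counting noise (chi-square per gene), so none was merged. In WT males the number 2 stands on 2 titles. They were numbered 2 and 3 and kept apart.

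All 10 members were described. Of each pathway list the passing genes were named, up to 4, or the 2 with the smallest p averaged over the sexes. The 3 genes most like a member were found by Pearson's r among genes with at least 10 CPM on average. Members and lists were chosen with earlier results of these data known. The result of 1 pathway list is not reported here.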

Additional observations from a re-analysis of the deposited data

Results flagged for a closer look

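Among 20 sets of 6 libraries of 1 titled genotype, 2 held a library whose gap to its nearest neighbour exceeded Dixon's 95% critical value as a share of the range, where chance gives about 1 in 20. Nfkb1 was at 227 CPM in WT male 2, with a gap of 0.65 of the range of the 6 WT-titled libraries (164 to 227 CPM). Nfkb2 was at 154 CPM in KO male 1, with a gap of 0.63 of the range of the 6 KO-titled libraries (154 to 276 CPM).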

How the results depend on the processing

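Over 18 alternatives to the fit reported above, no member was called except Nfkbia between the sexes in WT and Tnfaip3 with no filter on low counts. The causes of the changes below were not tested. Of all genes, 206 were called in KO minus WT averaged over the sexes, 10 in males and 0 in the other comparisons. With DESeq2 these counts were 647 averaged, 419 in males, 23 in females, 30 between the sexes in WT and 3 in the interaction, and 1 member was called (Nfkbia in WT). With no filter on low counts they were 627 averaged, 443 in males, 132 in females, 191 and 63 between the sexes in WT and in KO and 106 in the interaction, with 1 member called averaged, 1 in males and 1 between the sexes in WT. Without the 4 sex-discordant libraries they were 14 averaged, 135 in males and 5 between the sexes in WT and in KO. With the WT male libraries titled 2 summed they were 31 averaged and 0 in males. Leaving out single libraries gave 12 to 543 averaged, 0 to 734 in males, 0 to 2 in females, 0 to 38 and 0 to 324 between the sexes in WT and in KO, 0 to 4 in the interaction, and 0 to 1 members between the sexes in WT.

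With the title number as a replicate block, 9 genes were called averaged and 0 in males, and Rel in males turned to 0.04. Same-numbered libraries had correlations of deviations from -0.53 to 0.21, with 1 of 18 pairs over 0.1. The deviations were taken from titled group means, and some titled groups mix the sexes by their transcripts. The check therefore cannot decide whether the numbers mark shared handling.

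Small log2 fold changes turned direction. Without the 4 sex-discordant libraries, which leaves KO male 3 as the only KO male, Relb was at -0.078, Nfkbib -0.044 and Nfkbie 0.15 averaged. In females Nfkbie was at 0.051. In males Nfkb1 was at 0.038, Rel 0.16, Nfkbie 0.25 and Bcl3 -0.12. Rel was at -0.0029 between the sexes in WT. In KO Nfkb2 was at -0.16, Nfkbib 0.12, Nfkbie -0.048 and Bcl3 0.16, and in the interaction Nfkbie was at -0.20. With DESeq2 and with RLE Rela in females was at 0.0088, and Relb in males at 0.0020 and 0.0019. With the libraries titled 2 summed Nfkb1 was at 0.0015, Rel 0.0086 and Bcl3 -0.00010 in males.

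Leaving out single libraries gave these ranges. Averaged, Nfkb1 ran from -0.032 to 0.081, Nfkb2 -0.018 to 0.17, Rela -0.11 to 0.0036, Relb -0.039 to 0.14, Nfkbib -0.040 to 0.10 and Nfkbie -0.14 to 0.059. In females Nfkb1 ran from -0.022 to 0.14, Rela -0.076 to 0.041, Nfkbie -0.16 to 0.045 and Tnfaip3 -0.64 to 0.88. In males Nfkb1 ran from -0.12 to 0.084, Nfkb2 -0.071 to 0.31, Rel -0.30 to 0.11, Rela -0.22 to 0.018, Relb -0.21 to 0.078, Nfkbib -0.25 to 0.025, Nfkbie -0.25 to 0.14 and Bcl3 -0.10 to 0.25. Between the sexes in WT Rel ran from -0.13 to 0.22 and Rela -0.10 to 0.021. In KO Nfkb1 ran from -0.13 to 0.033, Nfkb2 -0.14 to 0.24, Rel -0.49 to 0.011, Rela -0.072 to 0.18, Relb -0.10 to 0.22 and Bcl3 -0.081 to 0.061. In the interaction Nfkb1 ran from -0.0067 to 0.20, Nfkb2 -0.27 to 0.11, Rela -0.028 to 0.21 and Nfkbie -0.16 to 0.23. The total counts limit genes near 0.291 CPM, far below every member.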
